A study of Homo sapiens with 4 samples.

Results

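The genes described here encode the machinery that moves newly made proteins between the endoplasmic reticulum (ER) and the Golgi apparatus. They were chosen by symbol among protein-coding genes: the translocon genes (SEC61, *SEC62* and *SEC63*), the genes of the COPII coat (SAR1, *SEC13*, SEC16, SEC23, SEC24 and SEC31), the TMED genes, the ARF genes, the COPI subunit genes whose symbols begin with COP, the KDEL receptors and the golgins *GOLGA1* to *GOLGA5*. The rule found 51 symbols in the GENCODE v29 annotation, and 50 of them were matched by identifier to the 57905 genes in the count tables. *SEC22B*, a membrane fusion protein of the same route, was not matched and was not analysed here. The rule reads symbols only, so *ARCN1*, the delta subunit of the COPI coat, is counted among the partner genes below.

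RNA was sequenced from U87MG, an established human glioblastoma (GBM) cell line, labelled wild type and used at passages 8 to 10. The 2 control samples were left untreated. The 2 chaetocin samples received 50 nM chaetocin, a fungal metabolite dissolved in DMSO, for 24 h. The labels name no DMSO-only control, so chaetocin and its solvent cannot be told apart. They also do not say whether the 2 samples of a group were separate cultures, and the p-values below therefore measure only the spread between these samples, which may be technical.

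Proteins destined for secretion or for membranes enter the ER through the SEC61 channel. Vesicles coated with COPII then carry them forward: the GTPase SAR1 starts the coat on the ER, SEC23 and SEC24 form the inner layer that selects cargo, and *SEC13* and SEC31 form the outer cage. Vesicles coated with COPI, which are assembled by ARF GTPases, return receptors and escaped ER proteins from the Golgi to the ER. Glioblastoma cells use this route to release extracellular matrix and to place growth factor receptors on their surface.

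The counts summed to between 21241984 and 32590479 per sample, and 3 reads corresponded to between 0.0921 and 0.141 CPM. CPM relate a count to the depth of its sample, and the levels below also carry TMM scaling factors. Changes are given as log2 fold changes of chaetocin over control with their standard error (SE). Genes with few reads were removed before testing, which left 16416 genes and 49 of the 50. The gene removed was *SEC16B*, which had 2 and 9 reads in the controls and 5 and 1 in the chaetocin samples, too few to compare. The abundant line markers *VIM*, *FN1* and *CD44* were detected at between 798 and 6473 CPM in each sample. The neural markers *SOX2* and *S100B* had no read in either control. With chaetocin, *SOX2* had 2 and 5 reads and *S100B* had 2 and 2. The summed level of the 7 line markers was 11970 and 9626 CPM in the controls and 6717 and 3994 CPM with chaetocin, so it was lower with treatment. The summed level of 7 markers of other cells was 18.0 and 18.6 CPM in the controls and 14.9 and 16.4 CPM with chaetocin. Nearly all of that sum was the neuronal gene *SYT1*, at 17.4 and 17.9 CPM in the controls and 13.2 and 13.9 CPM with chaetocin. The monocyte gene *CD14* had 7 and 11 reads in the controls and 10 and 41 with chaetocin. *CD3E* had no reads in any sample, and the leukocyte gene *PTPRC* had 0 and 1 reads in the controls and 15 and 27 with chaetocin (adjusted p = 0.0412, edgeR's quasi-likelihood test with Benjamini-Hochberg adjustment). The part of these markers in the results below was not tested. In RNA from whole cultures, fewer cells with a transcript and less of it per cell cannot be told apart.

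Transcripts of the ER to Golgi machinery were mostly lower by a small margin in chaetocin-treated cells, and a single gene passed the test. *SEC24D*, which encodes a cargo-selecting subunit of the COPII inner coat, fell to 59.1% of its control level. None was called higher. Of the 49 genes, 44 had a log2 fold change below 0 and 5 above it, namely *SEC31B*, *SEC61A2*, *ARF5*, *COPZ1* and *SAR1A*. The median log2 fold change was -0.18, against 0.01 over all 16416 genes and -0.02 over 13151 protein-coding genes. With upper-quartile scaling it was -0.10, against 0.08 over all genes. Without chaetocin sample 2 it was -0.11, against -0.01 over all genes. Among all genes tested, 49.1% were below 0, and among the protein-coding genes 52.3% were.

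Taken as a sum, the 49 genes stood at 9682 and 9470 CPM in the controls and at 8248 and 7800 CPM with chaetocin. Their share of all deposited counts, which needs no scaling, was 0.912% and 0.897% in the controls and 0.845% and 0.850% with chaetocin. Both treated samples were therefore below both controls on either scale. The CPM summed over all 16416 genes tested was lower too, at 1061000 and 1055000 in the controls and 975000 and 916000 with chaetocin. A lower sum of CPM was thus not particular to the secretory genes. With 2 samples against 2, an exact permutation test of such a sum cannot go below 1 in 3 on both sides, and none was run.

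The test across all genes called 0.743% of genes lower and 1.11% higher at an adjusted p under 0.05. Among the secretory genes it called 1 of 49 lower and 0 higher. At an unadjusted p under 0.05, 9 of the 49 were lower and 0 higher, where the shares of all genes were 9.43% lower and 10.9% higher. At that p, 1440 of the 13151 protein-coding genes were lower and 1313 higher. DESeq2 called 3 of the 49 lower (*SEC61A1*, *SEC24D* and *SEC23A*) and 0 higher, against 2.93% and 2.35% of all genes. Both chaetocin samples were below both controls for 22 of the 49, or 44.9%, against 26.0% of all genes. Both were above for 2, *SEC31B* and *SEC61A2*, or 4.08% against 26.8%. The values of the other 25 overlapped between the groups. Of the 13151 protein-coding genes, 28.6% lay below both controls and 24.45% above them. The plot of every secretory gene in every sample shows the positions of the 49.

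**Figure D1:**
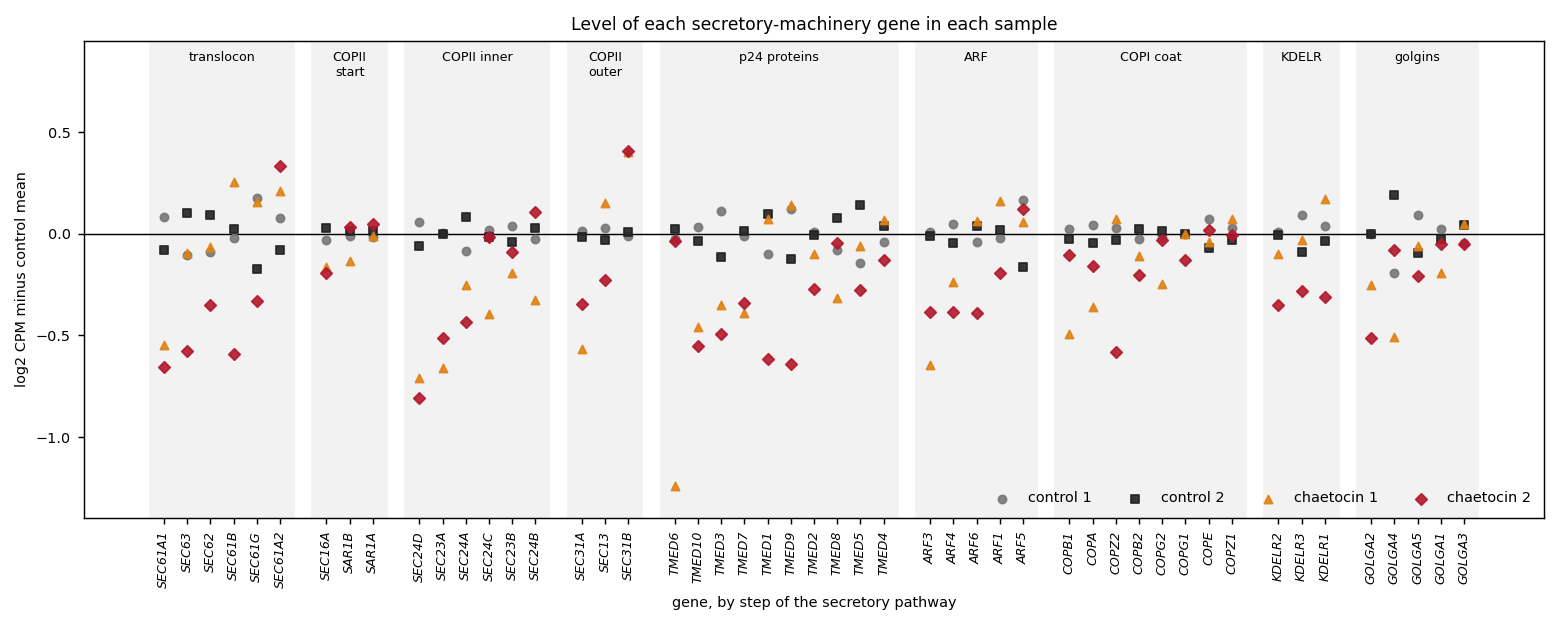
The vertical axis is the log2 CPM of each of 49 genes minus the mean of the 2 controls, and the horizontal axis lists the genes by step. Grey and black points are control 1 and 2, orange triangles chaetocin 1 and red diamonds chaetocin 2. Both chaetocin points lie under both control points for 22 genes and over them for 2.

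Promoters of the secretory genes were read because transcription factors of the ER stress response act on secretory genes through short DNA elements. RefSeq sequences on GRCh38.p14, from 250 bases before to 50 bases after the start of each gene, were at hand for 44 of the 50 genes. The element TGACGTGG, a core bound by *ATF6* and *XBP1* in the unfolded protein response, was searched on both strands. It was present in 12 of the 44 promoters, or 27.3%, against 0.729% of 35116 promoters of all genes and 0.761% of 22199 promoters of protein-coding genes. The 12 genes were *ARF1*, *COPA*, *COPB1*, *COPB2*, *GOLGA1*, *GOLGA5*, *KDELR3*, *SEC16A*, *SEC16B*, *SEC23A*, *SEC24A* and *SEC62*, and *COPB2* held it at 2 places. The windows of 30 bases below, from genes of the COPII and COPI coats and from *ARF1*, show the element in capitals, each on the strand that carries it:
SEC23A, chr14:39103221-39103250, minus strand: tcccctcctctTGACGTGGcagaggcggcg
SEC16A, chr9:136484707-136484736, plus strand: ttcagtccggcTGACGTGGcaccagggcca
SEC24A, chr5:134648595-134648624, plus strand: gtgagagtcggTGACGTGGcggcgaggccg
COPB1, chr11:14499841-14499870, plus strand: gagtccttggcTGACGTGGaagggggtggg
COPA, chr1:160343227-160343256, minus strand: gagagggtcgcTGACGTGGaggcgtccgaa
ARF1, chr1:228082681-228082710, plus strand: cccggaggcgcTGACGTGGccgccgtcaga

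The element began 4 bases before the annotated start in *SEC23A* and 16 bases before it in *ARF1*, and it lay within the first 50 transcribed bases in *COPA* and *SEC16A*. Where the next base was C, as in *SEC23A*, *SEC16A*, *SEC24A* and *ARF1*, the match also formed the antioxidant element TGACNNNGC, and this overlap occurred in 8 of the 12 genes. The antioxidant element was present in 12 of 44 promoters (27.3%), against 13.3% of all promoters. The element ERSE, CCAAT and CCACG with 9 bases between them, and the cyclic AMP element TGACGTCA were found in 0 of the 44, against 0.0769% and 1.85% of all promoters.

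Translocation into the ER is the first step. *SEC61A1* encodes the main pore-forming subunit of the channel. Its level was 1387 and 1239 CPM in the controls and 896 and 832 CPM with chaetocin. The groups did not overlap, and the log2 fold change was -0.60 (SE 0.18), which missed the threshold after adjustment (unadjusted p = 0.0105, adjusted p = 0.123). DESeq2 put it past the threshold with an adjusted p of 0.0143. By edgeR the adjusted p ran from 0.0151 without chaetocin sample 1 to 0.575 without control 1. Here and below, a fit without 1 sample leaves a group of 1, whose spread is assumed to equal that of the other group. Its close relative *SEC61A2* was 17.5 and 15.7 CPM in the controls and 19.2 and 20.9 CPM with chaetocin, 1 of only 2 genes for which both treated samples were the higher ones. The log2 fold change of *SEC61A2* was 0.27 (SE 0.17, adjusted p = 0.414).

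The reads of the pair were divided differently in the groups. *SEC61A2* took 1.25% of the reads of the pair in both controls, 2.10% in chaetocin sample 1 and 2.45% in chaetocin sample 2. Per exon length, the mean *SEC61A2* level was 4.24 RPKM (CPM divided by the exon length in kilobases) in the controls, against 280 RPKM for *SEC61A1*. The minor form thus remained minor in all 4 samples. How reads that match both genes were counted is not given in the sources used here, so the split between these alike sequences is uncertain.

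The other translocon genes varied between the treated samples. *SEC61B*, a small channel subunit, was 70.6 and 72.8 CPM in the controls, 85.6 CPM in chaetocin sample 1 and 47.5 CPM in chaetocin sample 2. *SEC61G*, *SEC62* and *SEC63* had log2 fold changes of -0.08, -0.20 and -0.32, with overlapping groups. *SEC62* and *SEC63* help some proteins enter the channel after translation. Set against the mean of the controls, the median log2 level of the 6 genes was 0.05 in the first chaetocin sample and -0.46 in the second. The median log2 fold change of the step was -0.16, and it was 0.03 without chaetocin sample 2, so the direction for this step rested on that sample.

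COPII assembly begins with SAR1 and the scaffold *SEC16A* at ER exit sites. Their values were close to control. *SAR1A* was 162 and 165 CPM in the controls and 163 and 169 CPM with chaetocin, a log2 fold change of 0.02 (SE 0.14). *SAR1B* had a log2 fold change of -0.05 (SE 0.14). *SEC16A* was 181 and 189 CPM in the controls and 166 and 162 CPM with chaetocin, lower in both treated samples by a small margin (log2 fold change -0.18, SE 0.14, adjusted p = 0.527). The median of the 3 genes was -0.05, and it was 0.04 without chaetocin sample 1 and 0.03 with upper-quartile scaling.

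The COPII inner coat held the gene that passed the test. *SEC24D* was 153 and 141 CPM in the controls and 89.7 and 83.8 CPM with chaetocin. The gap between the groups was wider than the spread within either, with means of 147 ± 8.65 and 86.7 ± 4.15 CPM (SD, n = 2 each). The log2 fold change was -0.76 (SE 0.14) with an adjusted p of 0.0427 by edgeR's quasi-likelihood test with Benjamini-Hochberg adjustment. The adjusted p was 0.255 without control 1, 0.0957 without control 2, 0.0011 without chaetocin sample 1 and 0.0081 without chaetocin sample 2. It was 0.0544 with upper-quartile scaling and 0.0551 with at least 10 counts in every sample. DESeq2 gave 0.0016.

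*SEC23A*, chosen for its values after they were seen, came next in the inner coat. It encodes the subunit that drives SAR1 to hydrolyse GTP. Its level was 99.98 and 99.6 CPM in the controls and 63.1 and 70.0 CPM with chaetocin. The controls were nearly equal and both treated samples were well below them. The log2 fold change was -0.58 (SE 0.14), with an adjusted p of 0.0749 by edgeR and 0.0318 by DESeq2. By edgeR the adjusted p was 0.0150 and 0.0096 without chaetocin sample 1 or 2, and 0.401 and 0.348 without control 1 or 2. Its paralog *SEC23B* had a log2 fold change of -0.14 (SE 0.14, adjusted p = 0.636).

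The other SEC24 forms, which recognise partly different cargo, were closer to control. *SEC24A* had a log2 fold change of -0.34 (SE 0.15, adjusted p = 0.253). *SEC24C*, the form with the highest level per exon length, was 290.1 and 283 CPM in the controls and 218 and 283 CPM with chaetocin, so that chaetocin sample 2 stood at the lower control. *SEC24B* was 81.2 and 84.3 CPM in the controls and 66.0 and 89.2 CPM with chaetocin, with the treated samples on either side of the controls. The inner coat had a median log2 fold change of -0.27 over 6 genes, all of them below 0, and 5 of the 6 lay below both controls, *SEC24C* by 283.2 against 283.4 CPM, where 26.0% of all genes did. The median lay between -0.37 and -0.24 when each sample was left out in turn. It was the lowest of the 9 steps with all samples and without chaetocin sample 2. Without chaetocin sample 1 it was -0.26. The translocon (-0.46), ARF (-0.38), p24 (-0.31) and KDEL receptor (-0.31) genes then stood lower. Without either control, the p24 genes stood lower.

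Within the SEC23 and SEC24 families the make-up of the transcripts differed between the groups. *SEC23A* took 63.3% and 64.4% of the SEC23 reads in the controls and 56.0% and 56.8% with chaetocin. The 2 treated samples differed from each other by less than they differed from the controls. *SEC24D* took 26.1% and 24.4% of the reads of the 4 SEC24 genes in the controls and 21.0% and 16.6% with chaetocin. *SEC24B* took 13.9% and 14.6% in the controls and 15.4% and 17.7% with chaetocin, and *SEC24C* took 49.6% and 49.1% against 50.9% and 56.2%. The shares of *SEC24A* overlapped. These shares are free of any scaling between samples, and no test was run on them.

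The outer cage is built from *SEC13* and a SEC31 form. *SEC31A* was 347 and 340 CPM in the controls and 232 and 271 CPM with chaetocin (log2 fold change -0.45, SE 0.16, unadjusted p = 0.0219, adjusted p = 0.169). The adjusted p ran from 0.0238 without chaetocin sample 2 to 0.673 without control 1. *SEC31B* was 2.95 and 2.99 CPM in the controls and 3.95 and 3.97 CPM with chaetocin, and its log2 fold change of 0.41 (SE 0.26, adjusted p = 0.417) was the highest of the 49. It rested on 72 and 86 reads in the controls and 86 and 141 with chaetocin. Both treated samples were the higher ones for *SEC31B* and the lower ones for *SEC31A*. *SEC31B* took 0.843% and 0.873% of the reads of the pair in the controls and 1.68% and 1.45% with chaetocin, a share on which no test was run. *SEC13*, which also belongs to the nuclear pore, had a log2 fold change of -0.03 (SE 0.17). The median of the outer cage was -0.03, and it was 0.14 without chaetocin sample 2 and 0.05 with upper-quartile scaling. Over the 13 COPII genes, 12 were tested, 10 were below 0 (49.1% of all genes were), 7 lay below both controls (26.0% of all genes did), and the median log2 fold change was -0.16.

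The p24 proteins, encoded by the TMED genes, travel in both coats and act as cargo receptors, among others for lipid-anchored proteins. All 10 had log2 fold changes below 0, with a median of -0.22, and none passed the test after adjustment. *TMED10*, a core subunit of the p24 complexes, was 513 and 489 CPM in the controls and 365 and 342 CPM with chaetocin. The groups were far apart relative to their spread, with a log2 fold change of -0.51 (SE 0.16, unadjusted p = 0.0128, adjusted p = 0.134). With a sample left out it ran from 0.0182 without chaetocin sample 1 to 0.636 without control 1. *TMED3* and *TMED7* had log2 fold changes of -0.42 and -0.36, with unadjusted p-values of 0.0253 and 0.0404 and adjusted p-values of 0.182 and 0.225.

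*TMED6* had the lowest fitted change of the family but was near the limit of detection, with 18 and 22 reads in the controls and 6 and 26 with chaetocin (log2 fold change -0.51, SE 0.57). *TMED4* was 79.7 and 84.2 CPM in the controls and 85.8 and 75.0 CPM with chaetocin, with no difference beyond the spread (log2 fold change -0.03, SE 0.15). *TMED1* and *TMED9* were at control level in chaetocin sample 1 and below it in chaetocin sample 2. For *TMED9* the values were 181 and 153 CPM in the controls and 184 and 107 CPM with chaetocin. *TMED2*, *TMED5* and *TMED8* had log2 fold changes between -0.18 and -0.17. Set against the mean of the controls, the median log2 level of the 10 genes was -0.21 in the first chaetocin sample and -0.31 in the second.

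**Figure D2:**
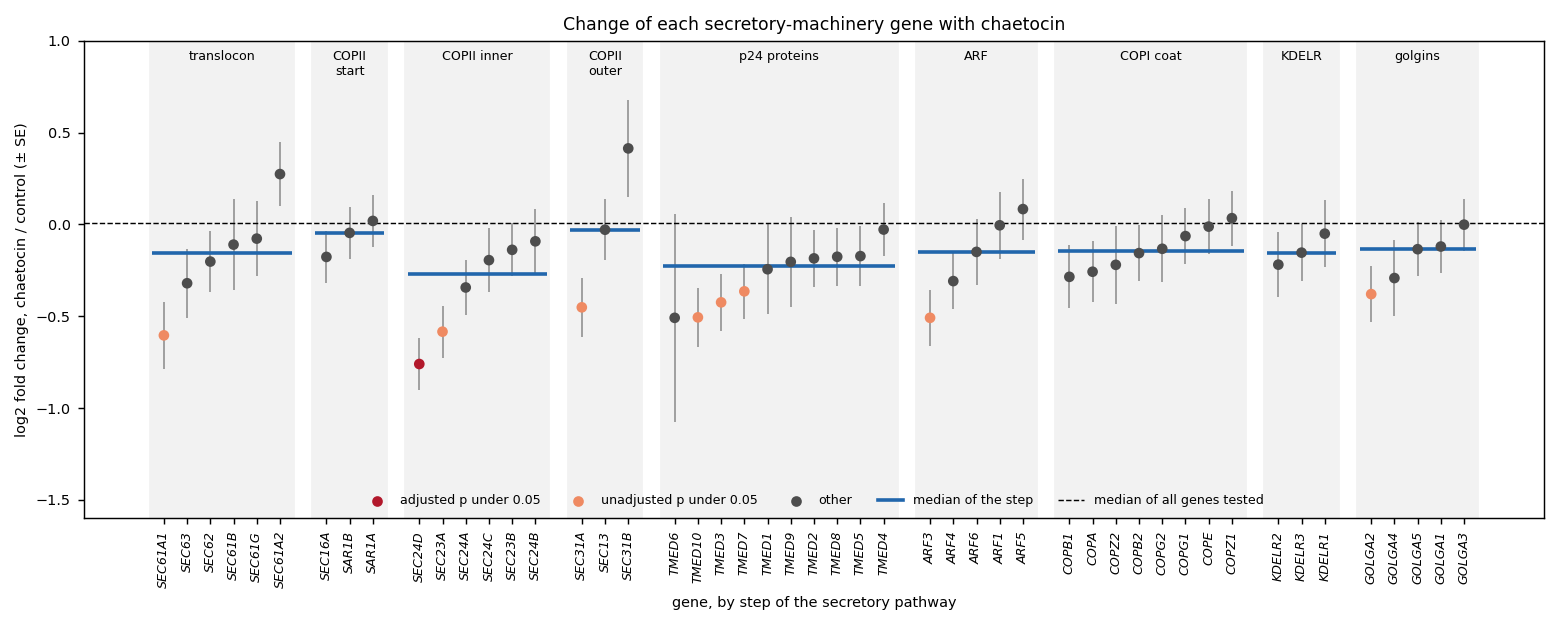
Points are log2 fold changes of chaetocin over control for 49 genes, in 9 steps, and bars are their SE. Blue lines are the medians of each step and the dashed line is the median of all 16416 genes (0.01). SEC24D, in red, had an adjusted p under 0.05, and the 8 orange genes had only an unadjusted p under 0.05.

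The ARF GTPases recruit the COPI coat to Golgi membranes. *ARF3*, which acts at the trans side of the Golgi, was 160.4 and 158 CPM in the controls and 102 and 122 CPM with chaetocin. Both treated samples were below both controls, and the log2 fold change was -0.51 (SE 0.15, unadjusted p = 0.0098, adjusted p = 0.119). This p ran from 0.0112 without chaetocin sample 2 to 0.553 without control 1. *ARF4* had a log2 fold change of -0.31 (SE 0.15, adjusted p = 0.305), also with both treated samples below the controls. *ARF1*, the best studied recruiter of COPI, was 509 and 523 CPM in the controls and 578 and 451 CPM with chaetocin. Its treated samples lay on either side of the controls (log2 fold change 0.00, SE 0.18). *ARF5* was 239.7 and 191 CPM in the controls and 223 and 233 CPM with chaetocin, within the spread of the controls. *ARF6*, which works mainly at the plasma membrane, had a log2 fold change of -0.15 (SE 0.18). The median of the 5 genes was -0.15, and it was 0.04 without chaetocin sample 2.

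Most genes of the COPI coat itself were lower by a small margin. Of the 8, 7 were below 0, where 49.1% of all genes were, and 4 lay below both controls, where 26.0% did. *COPB1*, which encodes the beta subunit, was 207 and 199.7 CPM in the controls and 144 and 189 CPM with chaetocin. *COPA*, the alpha subunit, was 501 and 472 CPM in the controls and 379 and 435 CPM with chaetocin. Both were lower in both treated samples, with log2 fold changes of -0.29 (SE 0.17, adjusted p = 0.392) and -0.26 (SE 0.17, adjusted p = 0.427). The adjusted p of *COPB1* ran from 0.0348 without chaetocin sample 2 to 0.864 without control 1, and its log2 fold change was -0.10 without chaetocin sample 1. *COPB2* and *COPG2* were also below both controls, by smaller margins (log2 fold changes -0.16 and -0.13). *COPZ1*, the major zeta subunit, was 269.9 and 258 CPM in the controls and 278 and 263 CPM with chaetocin, with no difference beyond the spread. *COPE* and *COPG1* had log2 fold changes of -0.01 and -0.06. The minor zeta gene *COPZ2* was 59.4 and 57.0 CPM in the controls, 61.3 CPM in chaetocin sample 1 and 38.9 CPM in chaetocin sample 2. The median over 8 genes was -0.14, and it was -0.08 without chaetocin sample 2 and -0.07 with upper-quartile scaling. None of the 8 had an unadjusted p under 0.05.

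KDEL receptors capture ER chaperones in the Golgi and return them in COPI vesicles. *KDELR2*, the form with most reads, was 634 and 629 CPM in the controls and 590.5 and 495 CPM with chaetocin. Both treated samples were lower, but the change was close to its error (log2 fold change -0.22, SE 0.18, adjusted p = 0.526). *KDELR1* was 104 and 98.3 CPM in the controls and 114 and 81.4 CPM with chaetocin, on either side of them. *KDELR3* had a log2 fold change of -0.15 (SE 0.16). *KDELR2* kept 75.7% and 77.1% of the reads of the family in the controls and 74.2% and 75.7% with chaetocin.

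Golgins are long coiled proteins on the Golgi surface that catch incoming vesicles. *GOLGA2*, known as GM130, was 86.3 and 86.2 CPM in the controls and 72.3 and 60.4 CPM with chaetocin. The controls were alike and both treated samples lower (log2 fold change -0.38, SE 0.15, unadjusted p = 0.0355, adjusted p = 0.210). Leaving out a sample gave adjusted p-values from 0.0154 without chaetocin sample 1 to 0.723 without control 1. *GOLGA4*, with the most reads of the 5, was 289 and 376 CPM in the controls and 231 and 311 CPM with chaetocin, so the groups overlapped. *GOLGA3* was 137 and 146 CPM in the controls and 146 and 137 CPM with chaetocin, with no difference beyond the spread. *GOLGA1* and *GOLGA5* had log2 fold changes of -0.12 and -0.13. The median of the step was -0.13.

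By coat, then, the medians were -0.16 for COPII with 3 of 12 genes at an unadjusted p under 0.05, and -0.14 for COPI with 0 of 8, where 9.43% of all genes were lower at that p. The difference between the coats was not tested, and counts over so few genes set no contrast. The curves of all changes set the secretory and partner genes beside every gene tested.

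**Figure D3:**
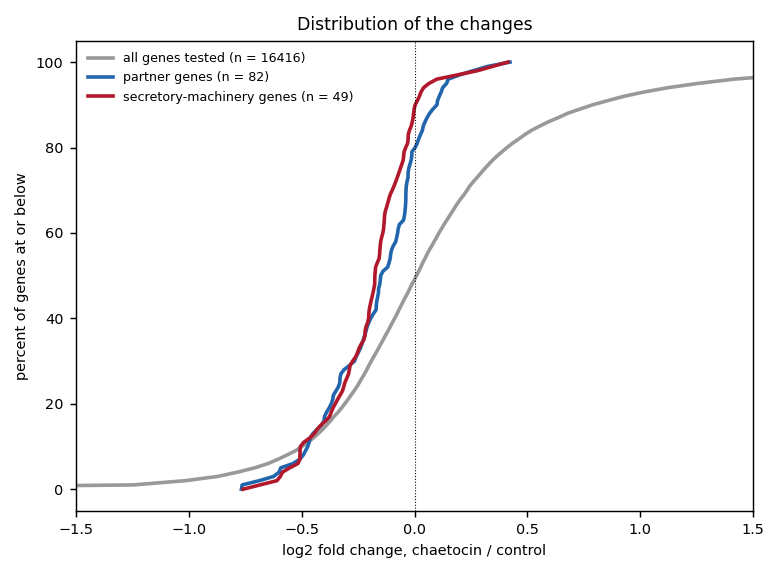
Each curve gives the percent of genes at or below a log2 fold change of chaetocin over control, for 49 secretory genes (red), 82 partner genes (blue) and all 16416 genes tested (grey). The red and blue curves lie to the left of the grey one in their middle and upper part, with medians of -0.18, -0.15 and 0.01.

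Other genes of the route were listed by function as partners. Of 84 partner genes, 82 were tested. The test called 1 lower and 0 higher, against 0.743% and 1.11% of all genes. At an unadjusted p under 0.05, 17 were lower and 0 higher, against 9.43% and 10.9% of all genes, and DESeq2 called 5 lower, against 2.93%. The median log2 fold change was -0.15, with 65 of 82 below 0. Both chaetocin samples lay below both controls for 37 of them, or 45.1%, against 26.0% of all genes. They lay above for 3, or 3.66%, against 26.8% of all genes. The 14 genes of ER exit and cargo capture had a median of -0.26, with 13 below 0, and 9 lay below both controls. Their lowest was *ERGIC1*, a recycling membrane protein, at 374 and 332 CPM in the controls and 266 and 199.9 CPM with chaetocin (log2 fold change -0.60, SE 0.19, adjusted p = 0.128). Their highest was the cargo lectin *LMAN2*, at 309.7 and 305 CPM in the controls and 438.5 and 285 CPM with chaetocin, which overlapped.

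The 19 genes for targeting and cutting of signal peptides had a median of -0.16, from *TRAM2* at -0.49 (SE 0.14, adjusted p = 0.116) to *SEC11C* at 0.42 (SE 0.19, adjusted p = 0.255). *TRAM2* assists the channel and *SEC11C* belongs to the signal peptidase. The 34 genes of tethers and membrane fusion had a median of -0.09, from *COG2* at -0.64 (SE 0.15, adjusted p = 0.0691) to *BET1L* at 0.30 (SE 0.16, adjusted p = 0.338). *COG2* is part of a Golgi tether and *BET1L* is a fusion protein. The 8 genes that complete or control COPI had a median of -0.13. *ARCN1* was 184 and 194 CPM in the controls and 161 and 157 CPM with chaetocin (log2 fold change -0.25, SE 0.14, adjusted p = 0.368), and the lowest was *ARFGEF1*, an activator of ARF, at -0.38 (SE 0.17, adjusted p = 0.240).

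The transcription factors of the ER stress response, formed the remaining list. *ATF6*, an ER membrane protein whose released part activates genes of protein folding, was the called partner gene. It was 137 and 153 CPM in the controls and 81.0 and 89.9 CPM with chaetocin. The groups did not overlap, with a log2 fold change of -0.76 (SE 0.15) and an adjusted p of 0.0466 by edgeR's quasi-likelihood test with Benjamini-Hochberg adjustment. The adjusted p was 0.111 without control 1, 0.214 without control 2, 0.0033 and 0.0039 without chaetocin sample 1 or 2, 0.0560 with upper-quartile scaling, 0.0516 with protein-coding genes only, 0.0585 when each sample needed 10 or more counts, and 0.0019 by DESeq2. *XBP1*, the lowest of the list, was 103 and 94.0 CPM in the controls and 72.2 and 43.6 CPM with chaetocin (log2 fold change -0.77, SE 0.23, adjusted p = 0.117). *DDIT3*, the highest, was 28.4 and 31.2 CPM in the controls and 34.4 and 27.0 CPM with chaetocin, with no difference beyond the spread. Of the 7 genes, 6 were below 0 and the median was -0.34. RNA levels do not report the splicing of *XBP1* or the cleavage of *ATF6*, which set their activity.

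The secretory genes with and without TGACGTGG overlapped in their change, which is given as a description with no test. The 11 tested genes with it had a median log2 fold change of -0.18, from -0.58 for *SEC23A* to 0.00 for *ARF1*, and 7 lay below both controls. The 32 without it had a median of -0.14, from -0.60 for *SEC61A1* to 0.41 for *SEC31B*, and 12 lay below both controls. Of all genes tested, 26.0% lay below both controls. For *SEC24D*, *ARF4*, *GOLGA4*, *KDELR2*, *TMED4* and *TMED9* no promoter was read. A match is a description of the sequence, and binding was not measured.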

How the data were processed

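RNA sequencing of 4 U87MG samples was analysed, 2 control and 2 chaetocin, grouped by their labels. The authors deposited raw counts per gene, listed by Ensembl identifier. The submitters' processing notes name cutadapt, TopHat, TopHat2, SAMtools and GRCh37; the counting tool, the strand setting and the handling of reads that match several genes are not given in the sources used here. Symbols, gene types and exon lengths came from GENCODE v29. Because its build (GRCh38) differs from that of the files, genes were matched by identifier and no position of a count is given.

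From the counts, edgeR 4.0.16 in R 4.3.3 was run on all genes with filterByExpr (minimum count 10), TMM scaling, a robust quasi-likelihood fit and Benjamini-Hochberg adjustment over 16416 genes, with a threshold of 0.05. Per-sample log2 levels used a prior count of 2. The fit was tested on simulated data. DESeq2 1.42.0, other scalings, other filters, a replicate block and leaving out each sample were alternatives. Counts summed to between 21241984 and 32590479 per sample. Floors cover counting error only, since PCR copies are not independent molecules. Replicates differed by more than sampling noise (chi-square per degree of freedom 13.2 and 34.75), so no sample was counted as a repeat deposit of another.

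The genes, gene lists and tests were chosen with earlier results of these data known. Values of each sample are given for called genes, for the lowest and highest change and the highest mean CPM of each step, and for genes that the filter removed. Partner genes are named if called or if lowest or highest of their list. Some genes of the lists are not reported here. Other genes named with values, among them *SEC23A*, were picked after the values were seen.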

Additional observations from a re-analysis of the deposited data

How the results depend on the processing

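The counts of called genes depended on the processing, and the cause was not tested. The secretory genes called lower, 1 of 49, numbered 0 with upper-quartile scaling, 0 with at least 10 counts in every sample, 3 with no filter on low counts, 3 by DESeq2, 9 at an unadjusted p, and 0 to 12 when each sample was left out. Without chaetocin sample 1 it was 12 (9.48% of all genes tested were then called lower), without chaetocin sample 2 it was 5 (5.59% of all), and without either control it was 0. The partner genes called lower, 1 of 82, numbered 0 with upper-quartile scaling and 0 with at least 10 counts in every sample. They numbered 0 among protein-coding genes only, 6 with no filter, 5 by DESeq2 and 17 at an unadjusted p. The calls of partner genes in both directions also changed with a sample left out. Secretory genes above both controls were 5 with upper-quartile scaling and 2 to 11 with a sample left out. Those below, 22 as reported, were 16 with upper-quartile scaling and 18 with at least 10 counts or protein-coding genes only. They were 28 to 38 with a sample left out, where a count over 3 samples is easier to reach. The shares of all genes above or below both controls under these settings are not given here. A shift of the secretory genes and a shift of all genes thus cannot be told apart in these counts. The share of all genes called lower was 0.536% with upper-quartile scaling, 0.552% with at least 10 counts, 0.707% among protein-coding genes, 2.39% with no filter, 2.93% by DESeq2, 9.43% at an unadjusted p, and 0.538% and 0.868% without control 1 or 2, against 0.743%. Over all genes, upper-quartile scaling gave 246 higher and 88 lower calls, against 182 and 122.

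The replicate block called 4 secretory genes lower (*ARF3*, *SEC23A*, *SEC24D* and *SEC61A1*) and 10 partner genes lower, where it called 6.41% of all genes lower. The sample titles give replicate numbers, and whether equal numbers mark paired samples was not tested. The differences between samples 1 and 2 correlated across genes with r = 0.123 between the groups. The block leaves 1 residual degree of freedom, against 2 without it.

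The median log2 fold change of the secretory genes was below that of all genes as reported and in all 11 alternatives, with differences of -0.278 to -0.0987. It was -0.0981 with upper-quartile scaling, which moved the median of all genes to 0.0848, and -0.227 to -0.109 with a sample left out. Upper-quartile scaling gave -0.192 for the COPII inner coat, -0.149 for the p24 genes, -0.0675 for COPI and -0.0596 for the golgins, and turned the sign for SAR1 and SEC16 (0.0309) and for the outer coat (0.0463). With a sample left out, the ranges were -0.464 to 0.0336 for the translocon, -0.140 to 0.0379 for SAR1 and SEC16, -0.369 to -0.244 for the inner coat, -0.227 to 0.142 for the outer coat, -0.320 to -0.217 for p24, -0.381 to 0.0432 for ARF, -0.178 to -0.0846 for COPI, -0.307 to -0.0419 for the KDEL receptors and -0.200 to -0.0911 for the golgins. Of 252 values of 23 named genes under the alternatives, 23 had the other sign, all of genes that were not called.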

Other observations

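The 2 chaetocin samples differed from each other along gene length, a comparison chosen after the values were seen. Among the 49 secretory genes, chaetocin sample 2 minus chaetocin sample 1 had a median log2 difference of -0.15 for the 25 genes with up to 4974 exonic bases and of 0.03 for the 24 longer genes. Spearman's rho between exon length and this difference was 0.367 over the 49 genes, which share their libraries, and 0.181 over 15981 genes. Between the controls, sample 2 minus sample 1 gave 0.342 and 0.0856. For the change with chaetocin, rho was -0.209 over the 49 genes and -0.166 over all genes, and the median log2 fold change was -0.14 for the shorter and -0.20 for the longer secretory genes. Over all genes it was 0.07 for the 8679 shorter and -0.05 for the 7302 longer. What length contributes to the results was not tested.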
